A study of Oryza sativa Indica Group with 2 samples.

Results

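*MSP1*, *TDL1A* and *MIL1* set the fate of cells in the young anther of rice, and were taken from the expression table by their locus numbers, LOC_Os01g68870 on chromosome 1, LOC_Os12g28750 on chromosome 12 and LOC_Os07g05630 on chromosome 7. They are 3 of 55337 loci in the table, and all 3 had a value above 0 in both libraries. The *Osam1* mutant came from gamma irradiation of the *indica* variety Zhongxian 3037 and carries a deletion of 2 nucleotides in exon 2 of *OsAM1*, which creates an early stop codon. Zhongxian 3037 itself was the wild type. Spikelets with meiocytes in prophase I were pooled from several field-grown panicles per genotype, and poly(A) RNA was sequenced, giving 1 library for *Osam1* and 1 for the wild type (WT). Values are FPKM, sequenced fragments scaled by transcript length and library size. With 1 library per genotype no difference has a replicate check within the sequencing data, and no test or error between plants can be given.

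*MSP1* (*MULTIPLE SPOROCYTE 1*) encodes a leucine-rich repeat receptor kinase, and *TDL1A*, also called *MIL2*, encodes the small secreted protein that binds it. In plants without either of them, too many cells of the young anther become sporogenous cells and the inner anther wall with its tapetum is lost. *MIL1* (*MICROSPORELESS 1*) belongs to the glutaredoxins, small redox enzymes, and to the CC class that land plants alone have. Loss of *MIL1* leaves the anther without microspores, because its germ cells stay out of meiosis. All 3 genes act before or around the entry into meiosis, whereas *OsAM1* is needed later, for the step out of leptotene.

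The only sequences of these genes in the tables used here are the primers with which the study measured *MIL1* by qRT-PCR. That measurement used another pair of wild-type and mutant samples. The study reports that qRT-PCR and RNA-Seq gave like patterns for all genes it examined, *MIL1* and *MEL1* among them. Its text prints no direction for *MIL1*, so the direction given here could not be compared with it. The primers are shown because they say which transcript was taken as *MIL1*, and each is 18 bases long.
MIL1 forward primer: tcgccactcctttgaccc
MIL1 reverse primer: caccacctgcatcctcat

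The labels of the libraries could not be checked with the mutated gene. *OsAM1* (LOC_Os03g44760, chromosome 3) had 3.76 FPKM in the *Osam1*-labelled library and 15.1 FPKM in the WT-labelled library, summed over 5 transcript models, but a short deletion need not remove the transcript, so its level does not show which library is the mutant. The study also measured this locus by qRT-PCR in another pair of samples and reports a pattern like that of its RNA-Seq. Its text prints no direction for the locus, so this could not be set against the labels. The headings of the columns give the *Osam1* library a capital AA and the wild-type library a small aa, the reverse of the usual spelling for a recessive mutant. For every locus with a single transcript model in the study's lists of meiosis genes, the direction printed there is the opposite of that in the table under these labels. Listed loci with several models were less uniform. LOC_Os03g59060, printed as higher in the mutant, was higher in the *Osam1*-labelled library too, with log2 ratios of 0.32 summed and 1.31 by the highest model. LOC_Os01g14980, also printed as higher, had -0.53 summed and 0.43 by the highest model. The study also gives more expressed genes and more reads for the mutant than for the wild type. In the table, 22088 loci were above 0 in the *Osam1*-labelled library and 23756 in the WT-labelled library. These counts are not like for like. The study's results give its counts at a cutoff of reads scaled by library size, while its methods name any value above 0. The table also ends at locus 37610 of chromosome 12. The counts alone therefore do not show which library is the mutant. From the headings and the printed directions, the labels may still be exchanged, which would turn round every direction given here. The libraries are therefore named by the submitters' labels, as *Osam1*-labelled and WT-labelled, and so is every direction. Floral markers were present in both libraries: *OsMADS1*, *OsMADS6*, *OsMADS16* and *OsMADS3* summed to 762.4 FPKM in the *Osam1*-labelled library and 556.1 FPKM in the WT-labelled library, with 0 of the 4 listed at 0. The leaf markers, 2 genes for the small subunit of Rubisco, summed to 220.9 FPKM in the *Osam1*-labelled library and 144.5 FPKM in the WT-labelled library.

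None of the 3 genes passed 2-fold between the libraries by the log2 ratio of FPKM + 1, on which 2-fold is an absolute value of at least 1. The plain FPKM values of *TDL1A*, the weakest gene, did differ by more than 2-fold. With transcript models summed, *TDL1A* was lower in the *Osam1*-labelled library by this measure, *MIL1* was higher, and *MSP1* had a direction that depended on how its transcript models were combined. For comparison, 20.8% of all 55337 loci, and 41.9% of the 27498 loci above 0 in at least 1 library, passed 2-fold. In whole spikelets, fewer cells of a type and less RNA per cell cannot be told apart.

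**Figure D1:**
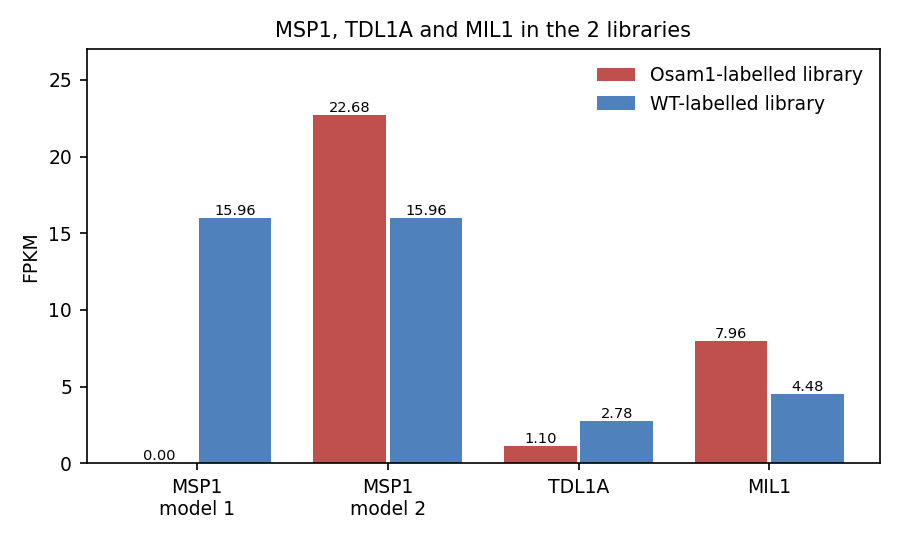
FPKM (vertical axis) of each transcript model of *MSP1*, and of *TDL1A* and *MIL1* with their single models, as bars for the *Osam1*-labelled library (left of each pair) and the WT-labelled library (right). Model 1 of *MSP1* is at 0 in the *Osam1*-labelled library, while both of its models are at 15.96 FPKM in the WT-labelled library.

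The ligand was the weakest of the 3 genes in both libraries. *TDL1A* had 1.10 FPKM in the *Osam1*-labelled library and 2.78 FPKM in the WT-labelled library, from 1 transcript model. The log2 ratio of FPKM + 1 was -0.85, and the plain ratio of the FPKM values was 0.396. *TDL1A* lay just inside the 2-fold limit on this scale, and the 1 FPKM added to each value is as large as the value itself here: with 0.1 FPKM added, the log2 ratio was -1.26, past 2-fold. At such levels large ratios were common. Among the 2930 loci with a mean FPKM within 1.5-fold of that of *TDL1A*, 76.9% passed 2-fold, 80.4% had an absolute ratio at least as large as *TDL1A*, and 61.9% were listed at 0 in 1 library. Its paralogue *TDL1B* (LOC_Os10g14020, chromosome 10) was listed at 0 in both libraries for both of its transcript models. Of the *TDL1* pair, reads were thus recorded for *TDL1A* alone.

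The receptor was the most strongly expressed of the 3 genes. *MSP1* has 2 transcript models in the table. Model 1 was listed at 0 in the *Osam1*-labelled library and at 15.96 FPKM in the WT-labelled library. Model 2 had 22.68 FPKM in the *Osam1*-labelled library and 15.96 FPKM in the WT-labelled library. The wild-type library thus carried the same value for both models, and the *Osam1* library carried its whole signal on model 2. Summed, *MSP1* had 22.68 FPKM in the *Osam1*-labelled library and 31.92 FPKM in the WT-labelled library, a log2 ratio of -0.48. Taking the highest model in each library, an alternative chosen after the values were seen, gave 22.68 FPKM in the *Osam1*-labelled library and 15.96 FPKM in the WT-labelled library, a log2 ratio of 0.48. By either measure the gene stayed within 2-fold, which 42.4% of expressed loci passed by the highest model. The sign of the *MSP1* difference was therefore set by the treatment of a value that appears on 2 lines of the table, and no direction is given for the gene.

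The pattern of *MSP1* is a feature of the table that other loci share. Of 4073 loci with 2 transcript models, 817 had equal values above 0 on both models in the WT-labelled library, and 644 did so in the *Osam1*-labelled library. *MSP1* is 1 of 121 loci, 2.97% of the 4073, with equal models in the WT-labelled library and 1 model at 0 in the *Osam1*-labelled library. The median log2 ratio of these 121 loci was -0.14 with models summed and 0.79 with the highest model, and 41 of them, *MSP1* included, changed sign between the measures. The mirror pattern, equal models in the *Osam1*-labelled library and 1 model at 0 in the WT-labelled library, was found at 62 loci, with medians of 0.13 for the sum and -0.84 for the highest model. Equal values make the sum 2 times the single value in the library that repeats them, so the shift between the measures follows from the arithmetic. Whether the reads of *MSP1* came from 1 isoform or both cannot be told from the table.

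**Figure D2:**
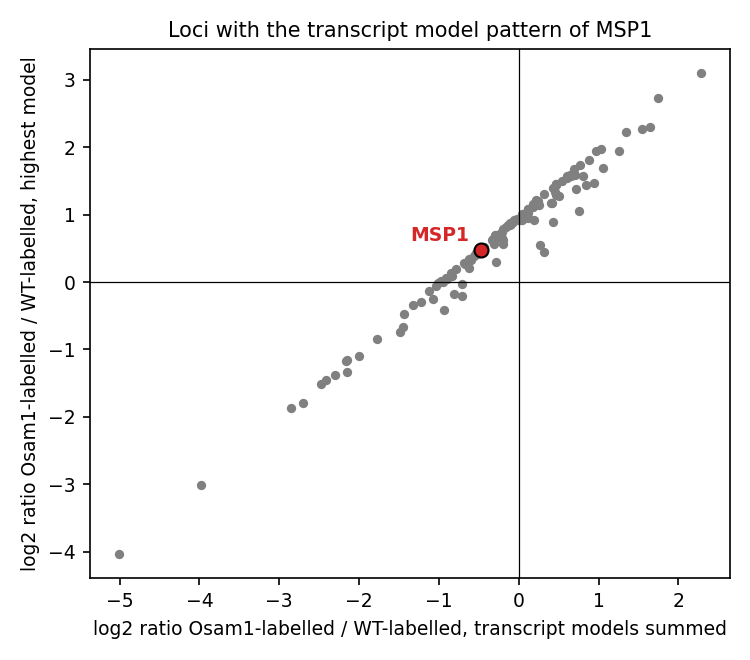
Log2 ratio of FPKM + 1, *Osam1*-labelled library over WT-labelled library, for the 121 loci with the transcript model pattern of *MSP1*, with models summed (horizontal axis) and with the highest model (vertical axis). Each point is 1 locus, and *MSP1* (red) lies at the upper left, negative by the sum (-0.48) and positive by the highest model (0.48).

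Receptor kinases of this class signal with co-receptors of the SERK family, and both SERK genes examined had values above 0 in both libraries. *OsSERK1* (LOC_Os08g07760, chromosome 8) had 47.3 FPKM in the *Osam1*-labelled library and 69.6 FPKM in the WT-labelled library, a log2 ratio of -0.55. *OsSERK2* (LOC_Os04g38480, chromosome 4) had 17.4 FPKM in the *Osam1*-labelled library and 23.0 FPKM in the WT-labelled library, all on 1 of its 2 models, a log2 ratio of -0.39. Both were within 2-fold. *OsSERK1* was thus above *MSP1* in each library whichever *MSP1* measure is taken, while *TDL1A* was far below it. On the FPKM scale, which accounts for transcript length, the highest model of *MSP1* was 20.6 times *TDL1A* in the *Osam1*-labelled library and 5.74 times *TDL1A* in the WT-labelled library. With the models of *MSP1* summed, the value for the WT-labelled library was 11.5. The ratio for the *Osam1*-labelled library divides by a *TDL1A* value of 1.10 FPKM, which may rest on very few reads, so the gap between the libraries is uncertain.

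*MIL1* had 7.96 FPKM in the *Osam1*-labelled library and 4.48 FPKM in the WT-labelled library, from 1 transcript model. The log2 ratio of FPKM + 1 was 0.71 and the plain ratio was 1.78. *MIL1* was thus the only gene of the 3 that was higher in the *Osam1*-labelled library however the models of *MSP1* were combined. The difference was an ordinary one for its level. Of the 3472 loci with a mean FPKM within 1.5-fold of that of *MIL1*, 67.1% had an absolute ratio at least as large, 55.4% passed 2-fold and 20.4% were listed at 0 in 1 library. *MIL1* was 7.24 times *TDL1A* in the *Osam1*-labelled library and 1.61 times *TDL1A* in the WT-labelled library. The first of these divides by 1.10 FPKM, a value that may rest on as little as 1 read, so the gap between them is uncertain.

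Relatives of *MIL1* were represented by 2 further CC-type glutaredoxins. Os02g30850, on chromosome 2, was listed at 0 in the *Osam1*-labelled library and at 4.30 FPKM in the WT-labelled library. Os04g32300, on chromosome 4, was listed at 0 in both. These are the rice *OsROXY* genes, close relatives of the *Arabidopsis* *ROXY1* and *ROXY2* genes that act in anther development. *MIL1* was the only one of the 3 glutaredoxins examined with a value above 0 in both libraries. The mean FPKM of Os02g30850 was within 1.5-fold of that of *TDL1A*, a level at which 61.9% of loci were listed at 0 in 1 library and 76.9% passed 2-fold. Of the 5 partner genes (*TDL1B*, both SERK genes and both *OsROXY* genes), 3 were above 0 in at least 1 library. Of these 3, 0 passed 2-fold upwards and 1, Os02g30850, passed it downwards in the *Osam1*-labelled library, against 19.3% of expressed loci higher and 22.6% lower. Their median log2 ratio was -0.55, beside -0.01 over all expressed loci.

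In rank, the order of the genes was the same in both libraries: *MSP1*, then *MIL1*, then *TDL1A*. In the *Osam1*-labelled library, *MSP1* with its models summed was above 85.2% of all loci and 62.8% of the 22088 loci above 0. In the WT-labelled library it was above 88.0% of all loci and 72.1% of the 23756 loci above 0. With the highest model it was above 65.2% of the loci above 0 in the *Osam1*-labelled library and 58.2% in the WT-labelled library, so that the library in which *MSP1* ranked higher also depended on the measure. *MIL1* was above 39.1% of the loci above 0 in the *Osam1*-labelled library and 32.0% in the WT-labelled library. *TDL1A* was above 10.5% in the *Osam1*-labelled library and 24.9% in the WT-labelled library. The median locus above 0 had 13.3 FPKM in the *Osam1*-labelled library and 12.2 FPKM in the WT-labelled library. *MSP1* was above this median in both libraries by either measure, and *MIL1* and *TDL1A* were below it. The gap between *MIL1* and *TDL1A* was narrow in the WT-labelled library, 4.48 FPKM against 2.78 FPKM, and no spread between plants is known with which to judge it.

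**Figure D3:**
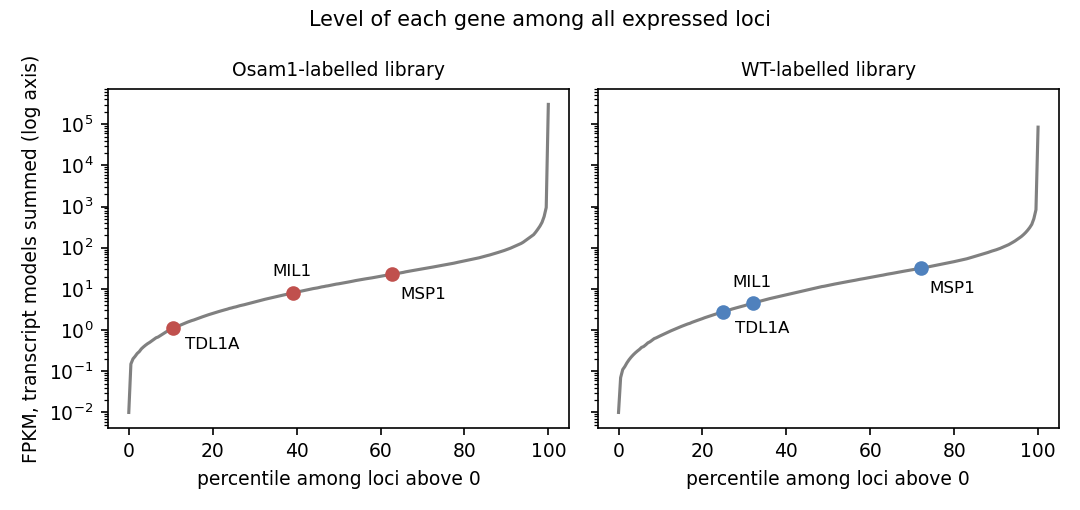
FPKM with transcript models summed (vertical log axis) against the percentile among loci above 0 (horizontal axis), for the *Osam1*-labelled library (left) and the WT-labelled library (right). The grey line is all loci above 0 and the points are the 3 genes, with *TDL1A* at 10.5%, *MIL1* at 39.1% and *MSP1* at 62.8% in the *Osam1*-labelled library, and at 24.9%, 32.0% and 72.1% in the WT-labelled library.

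In rank of the ratio, none of the 3 genes was near either end. Among the 27498 loci above 0 in at least 1 library, 25.6% had a lower log2 ratio than *TDL1A*, 34.7% a lower one than *MSP1* with models summed (66.2% with the highest model), and 73.7% a lower one than *MIL1*. For *MSP1*, 59.2% of the 4516 loci with a mean FPKM within 1.5-fold of its own had an absolute ratio at least as large, 30.1% passed 2-fold, and 1.97% were listed at 0 in 1 library. Missing values were thus rare at the level of *MSP1* and frequent at that of *TDL1A*.

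**Figure D4:**
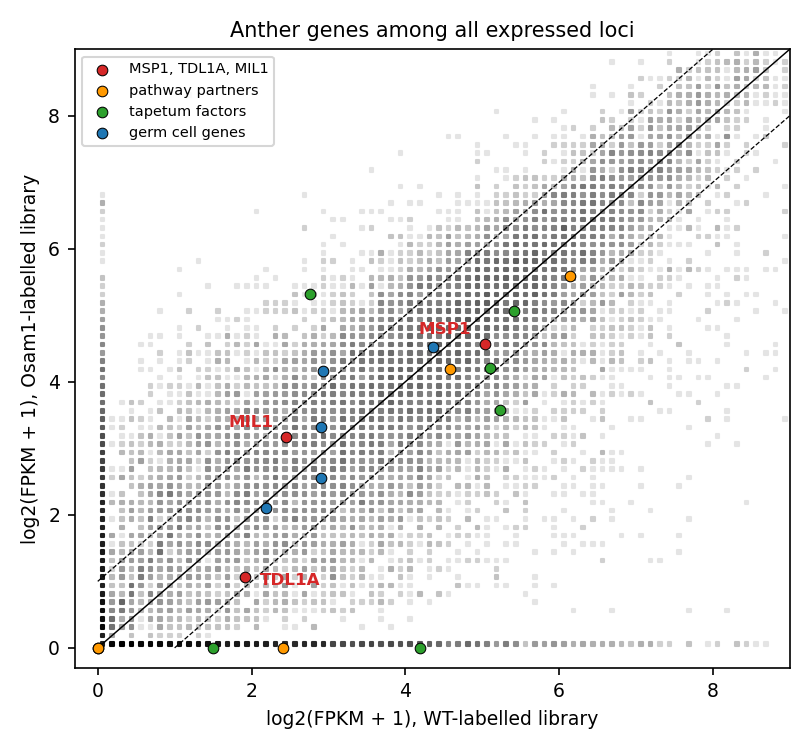
Log2(FPKM + 1) in the *Osam1*-labelled library (vertical axis) against the WT-labelled library (horizontal axis), models summed. Grey squares are all expressed loci (darker for more loci), the solid line marks equal values and the dashed lines 2-fold; the 3 genes (red) lie between the dashed lines, while points of the tapetum factors (green) and partner genes (orange) on the lower edge are listed at 0 in the *Osam1*-labelled library.

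The numbers of reads behind *TDL1A* and *MIL1* are not known. The table holds no counts, but where whole reads were counted, the ratio of a gene's FPKM values between the libraries falls on steps set by whole numbers. Such steps were visible among the 4318 loci with 1 transcript model, a value above 0 in the WT-labelled library and 1 to 10 FPKM in the *Osam1*-labelled library. The tallest step lay at a ratio of 2.37. If it stands for equal numbers of reads, the smallest whole numbers that give the ratio of *TDL1A* are 1 read in the *Osam1*-labelled library and 6 reads in the WT-labelled library, and for *MIL1* they are 3 reads in the *Osam1*-labelled library and 4 reads in the WT-labelled library. Multiples of these numbers fit as well, and the tallest step may also stand for 2 or 3 reads against 1, or for 1 read against 2 or 3. Over these 5 readings, the depth of the WT-labelled library would be 0.789 to 7.10 times that of the *Osam1*-labelled library. The readings are a chosen set, so their number on either side does not show which library is deeper. The study's total, mapped and uniquely matched reads each differ by less than 2-fold between the genotypes, whichever way the libraries are assigned. Depths of 2.37, 4.74 and 7.10 lie outside this range, and 2.37 is that of equal reads. With the step read as 2 reads against 1, a depth of 1.18, the smallest numbers were 1 and 3 reads for *TDL1A*. For *MIL1* they were 3 and 2 reads, with the *Osam1*-labelled library first. At the smallest numbers for equal reads, the exact (Clopper-Pearson) 95% interval of the FPKM ratio was 0.00858 to 3.25 for *TDL1A*. For *MIL1* it was 0.260 to 10.5, and both intervals include a ratio of 1. At the smallest numbers they did so under the 4 other readings of the step too, with the narrowest interval at 0.00947 to 2.50 for *TDL1A* and at 0.496 to 7.89 for *MIL1*. With the step read as equal reads, the interval of *TDL1A* would exclude a ratio of 1 from 6 reads in the *Osam1*-labelled library and 36 in the WT-labelled library upwards. That of *MIL1* would do so from 24 and 32 reads. With 2 reads against 1, these numbers were 7 and 21 for *TDL1A* and 33 and 22 for *MIL1*. These intervals cover counting error only, and 18 PCR cycles without molecular identifiers came before sequencing.

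**Figure D5:**
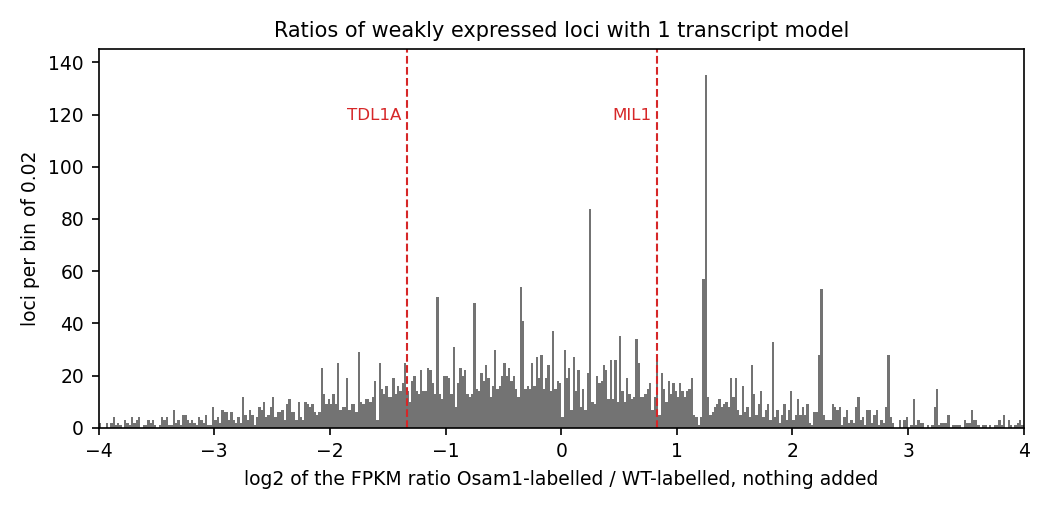
Number of loci (vertical axis, bins of 0.02) by the log2 of the plain FPKM ratio, *Osam1*-labelled library over WT-labelled library (horizontal axis), for 4318 loci with 1 transcript model and 1 to 10 FPKM in the *Osam1*-labelled library. The narrow spikes are the steps of whole reads, the tallest bin holds 135 loci at a log2 ratio of 1.25, and dashed lines mark *TDL1A* and *MIL1*.

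The cells that *MSP1* and *TDL1A* help to specify, the tapetum, were represented by 6 regulators. *UDT1*, an early tapetum bHLH factor, had 39.1 FPKM in the *Osam1*-labelled library and 5.79 FPKM in the WT-labelled library, a log2 ratio of 2.56. *TIP2*, another bHLH factor of the tapetum, was listed at 0 in the *Osam1*-labelled library and at 17.2 FPKM in the WT-labelled library. The PHD-finger gene *PTC1*, which acts later in the tapetum, was listed at 0 in the *Osam1*-labelled library and had 1.83 FPKM in the WT-labelled library. It was thus below *TDL1A* in both libraries, and values of 0 in 1 library were already frequent at the level of *TDL1A*. Of the 6 genes, 1 was higher and 3 were lower past 2-fold in the *Osam1*-labelled library with models summed, beside 19.3% and 22.6% of expressed loci. With the highest model 1 was higher and 2 were lower, beside 19.9% and 22.6% of expressed loci, since *GAMYB* then had 10.9 FPKM against 18.2 FPKM, a log2 ratio of -0.70 where the sums gave -1.66. *TDR* and *EAT1*, with log2 ratios of -0.90 and -0.36, were within 2-fold. The list median was -1.20 with models summed and -0.80 with the highest model. The tapetum regulators thus differed in both directions.

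Genes of the meiocytes lay on both sides of equal values. *MEL1*, the germ-cell Argonaute, had 22.1 FPKM in the *Osam1*-labelled library and 19.6 FPKM in the WT-labelled library. *ZEP1*, which encodes a protein of the synaptonemal complex, had 16.9 FPKM in the *Osam1*-labelled library and 6.60 FPKM in the WT-labelled library, a log2 ratio of 1.24. It was the only one of 5 germ-cell genes past 2-fold, against 41.9% of expressed loci past 2-fold in either direction and 19.3% higher, so the count is near or below that of all expressed loci. *PAIR1*, *PAIR2* and *OsREC8* had log2 ratios of -0.09, 0.42 and -0.35. The study describes the levels of *ZEP1* and *PAIR2* as similar between the genotypes, and *PAIR1* and *REC8* as not differentially expressed. Its calls also required a false discovery rate, which was not calculated here, so the 2-fold limit alone is a different measure. The median of the 5 was 0.16, and their summed level was 56.1 FPKM in the *Osam1*-labelled library and 42.7 FPKM in the WT-labelled library. The part that the amounts of germ cells, tapetum or leaf RNA have in the values of *MSP1*, *TDL1A* and *MIL1* was not tested.

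The loci next to the 3 genes by number did not share their values. *TDL1A* lies between LOC_Os12g28740 and LOC_Os12g28760, both listed at 0 in both libraries. *MIL1* follows LOC_Os07g05620, with 14.4 FPKM in the *Osam1*-labelled library and 19.8 FPKM in the WT-labelled library, and precedes LOC_Os07g05640, with 3.44 FPKM in the *Osam1*-labelled library and 12.4 FPKM in the WT-labelled library. *MIL1* was thus higher in the *Osam1*-labelled library while both of its neighbours were lower there. *MSP1* follows LOC_Os01g68860, with 32.6 FPKM in the *Osam1*-labelled library and 100.5 FPKM in the WT-labelled library over 3 models, and precedes LOC_Os01g68880, listed at 0 in both. The library kit did not mark strand, so reads of genes that overlap a neighbour cannot be told apart.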

How the data were processed

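The authors filtered reads for adaptors and low quality, aligned them to the Rice Genome Annotation Project genome with SOAPaligner/soap2, allowing 2 mismatches, and calculated expression with ERANGE 4.0. They deposited FPKM per transcript model, rounded to 2 decimals; the methods name RPKM, and the annotation release is not given in the sources used here. The table holds 65535 rows, ends at locus 37610 of chromosome 12, and states no depth. Shares of all loci are therefore shares of the loci it lists, with 185 rows outside a named locus counted by their own names. The study lists total reads per genotype, which were not used to calculate read numbers because the assignment of the libraries is in doubt. They were only set beside the readings of the tallest step. FPKM of the models of a locus were summed here. The log2 ratio was log2 of (FPKM + 1) in the *Osam1*-labelled library over that in the WT-labelled library. No test was run, with 1 library per genotype. The genes and lists were chosen with earlier results of these data known, and the text names all of them, plus the locus next to each gene. The study pairs *MIL1* and *MEL1* with their locus numbers, and the other locus numbers come from general knowledge. The RefSeq gene list of *japonica* rice holds 18 of the 26 symbols, and its coordinates were not used. Lists by RefSeq product could not be made, as it gives no products. The ratio calls and the search for steps were tested on simulated data, for the steps at depths below the study's read totals. The tallest step lay at a ratio of whole numbers up to 3 in 18 of 18 simulated pairs, and at equal reads in 8. This range includes 3 against 2 and 2 against 3, which the readings given leave out, so the simulation does not bear out that set of readings alone. That range was set after peaks had been seen; earlier versions that chose the step by likelihood misread some simulated pairs and were dropped, and an earlier set of simulated depths had 1 pair outside the range. Alternatives were added values of 0.1 and 0.01 FPKM, scaling by the median ratio or the 75th percentile, the first model, and filters on low values. The highest model, the mean of models and an exchange of the labels were chosen after seeing the data. Python 3.11.15, numpy 2.4.6, pandas 2.3.3, scipy 1.17.1 and matplotlib 3.10.9 were used.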

Additional observations from a re-analysis of the deposited data

How the results depend on the processing

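The direction of *TDL1A* and *MIL1* held under every alternative except an exchange of the labels, which gave 0.85 and -0.71 (and 0.48 for *MSP1*), and *MSP1* changed sign with the highest model, at 0.48. As *TDL1A* and *MIL1* have 1 model each, neither the choice of model nor the added value can change their sign. Only the scalings could have done so. For *MSP1*, the log2 ratio was -0.49 with 0.1 or 0.01 FPKM added, -0.54 after dividing by the median ratio, -0.53 after dividing by the 75th percentile, -4.08 with the first listed model and -0.46 with the mean of models. For *TDL1A* it was -1.26 and -1.33, past 2-fold, with 0.1 and 0.01 FPKM added, and -0.88 under either scaling. For *MIL1* it was 0.82 and 0.83 with 0.1 and 0.01 FPKM added, 0.65 after the median ratio and 0.66 after the 75th percentile. Neither gene with 1 model moved with the choice of model. The number of loci past 2-fold, 11521, stayed within 1.5-fold of this under each alternative, from 9715 over loci averaging 1 FPKM or more to 16033 with 0.01 FPKM added. Among loci above 0, *MSP1*, *TDL1A* and *MIL1* were above 62.8%, 10.5% and 39.1% of loci in the *Osam1*-labelled library and 72.1%, 24.9% and 32.0% in the WT-labelled library, where among all loci they were above 85.2%, 64.3% and 75.7% in the *Osam1*-labelled library and 88.0%, 67.8% and 70.8% in the WT-labelled library. With the highest model, *MSP1* was above 86.1% of all loci in the *Osam1*-labelled library and 82.0% in the WT-labelled library, and 66.2% of expressed loci had a lower ratio. Over loci averaging 1 FPKM or more, 34.2%, 26.5% and 72.5% had a lower ratio than *MSP1*, *TDL1A* and *MIL1*. No paired analysis was possible because each genotype has 1 library. The FPKM table states no depth, and transcript lengths were not used here, so the read numbers behind each value remain unknown.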

Other observations

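The loci with 1 transcript model whose pair of values lay closest to each gene, by distance on the log2(FPKM + 1) scale over the 2 libraries, were LOC_Os04g20330, LOC_Os02g43050 and LOC_Os06g07220 for *MSP1* with its models summed, LOC_Os10g19960, LOC_Os06g15550 and LOC_Os06g42630 for *TDL1A*, and LOC_Os06g08510, LOC_Os12g06660 and LOC_Os07g48570 for *MIL1*. The closest had 22.9 FPKM in the *Osam1*-labelled library and 31.8 FPKM in the WT-labelled library for *MSP1*. For *TDL1A* it had 1.08 FPKM in the *Osam1*-labelled library and 2.86 FPKM in the WT-labelled library, and for *MIL1* 7.85 FPKM in the *Osam1*-labelled library and 4.43 FPKM in the WT-labelled library. Within a distance of 0.1 there were 33, 6 and 15 such loci for *MSP1*, *TDL1A* and *MIL1*. With 2 libraries, likeness of this kind is a description of levels alone. LOC_Os06g15550 and LOC_Os06g42630 had the same pair of values, 1.19 FPKM in the *Osam1*-labelled library and 2.76 FPKM in the WT-labelled library.

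*OsMADS16*, the B-class gene of stamens and lodicules, had the same pattern of transcript models as *MSP1*. Model 1 had 358.3 FPKM in the *Osam1*-labelled library and 154.1 FPKM in the WT-labelled library, and model 2 was listed at 0 in the *Osam1*-labelled library and at 154.1 FPKM in the WT-labelled library. Its log2 ratio was 0.22 with models summed and 1.21 with the highest model, so it passed 2-fold by the highest model alone. The models of *OsAM1* differed in the same table, with model 2 at 1.87 FPKM in the *Osam1*-labelled library and at 0 in the WT-labelled library, and models 3, 4 and 5 at 0.63 FPKM each in the *Osam1*-labelled library and at 5.04 FPKM each in the WT-labelled library.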
